A study of Mus musculus with 6 samples.

Results

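Collagens are the triple-helical proteins of the extracellular matrix, and each chain is the product of a gene of its own. The 44 mouse genes whose symbol reads Col, a number, a and a number, and whose transcript cluster carried that symbol alone, were followed from proliferating to differentiating enterospheres, among 19938 genes measured. Enterospheres are free-floating spheroids that grow from the dissociated muscle layer of the newborn gut and hold progenitors of the enteric nervous system beside other cells of the gut wall. By chain type, 11 genes encode fibrillar, 9 fibril-associated and 8 basement membrane collagens, and 16 encode other types. Col6a5 and Col6a6 each had a pair of clusters, and the brighter one by its mean over the 6 arrays was used.

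Expression was measured in 6 enterosphere samples, each on 1 GeneChip Mouse Gene 1.0 ST array. The 3 proliferation samples spent 11 days in medium with EGF and FGF, and the 3 differentiation samples spent 9 days in the same medium and the last 2 days in differentiation medium. All samples came from untreated C57BL/6 mice up to 12 hours old, and by the labels 3 mice were pooled for each sample. Differentiation medium lacked EGF and FGF and contained ascorbic acid-2-phosphate (200, in µmol/mL by the labels and in µM by the study's methods), which was not listed for proliferation medium, so the loss of the growth factors and the gain of ascorbate cannot be told apart. The labels and the methods also differed on the number of pups, the EGF dose and the split of the first 9 days. By the methods, collecting spheres from suspension was a step against carry-over of fibroblasts and smooth muscle, which adhere to the dish. The spheres still were a mixture of cells, and in such bulk RNA fewer cells of a type and less RNA per cell cannot be told apart.

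Fibrillar collagens (types I, II, III, V, XI, XXIV and XXVII) form the load-bearing fibrils. Fibril-associated collagens, among them types IX, XII, XIV and XVI, sit on the fibril surface, while type IV builds the network of basement membranes, in which the proteoglycan-like types XV and XVIII also lie. The remaining types form beaded filaments (VI), anchoring fibrils (VII), hexagonal networks (VIII, X) or span the membrane (XIII, XVII, XXIII, XXV). In the secretory pathway, prolines and lysines of the chains are hydroxylated by enzymes that need ascorbate. Secreted fibrillar chains are then trimmed, and the fibrils that they form are crosslinked. Collagens of the gut muscle wall come mainly from fibroblasts and smooth muscle, and the laminin- and collagen-rich matrix around enteric ganglia is known to affect migration and differentiation of neural crest cells.

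The deposited log2 values were compared as differentiation minus proliferation with a linear model (limma), and a gene was called higher or lower when its p, adjusted by Benjamini-Hochberg over 35556 transcript clusters, was under 0.05. Arrays have no count behind a value, so the precision rests on 3 arrays a group and on their spread, and 3 against 3 allows an exact two-sided permutation p of no less than 0.1. Correlations between arrays lay from 0.988 to 0.995 within groups and from 0.983 to 0.989 across them. A cluster's value depends on its probes, so values were compared between arrays and not between genes. All 8 measured markers of enteric glia and neural crest progenitors and all 9 of neurons had means above the median cluster mean of 6.15, and of the 13 fibroblast markers 4 lay below it (Pi16, Mfap5, Clec3b and Scara5). The markers of macrophages lay below it in 8 of 8, of endothelial cells in 6 of 8, of epithelial cells in 5 of 7 and of mesothelial cells in 4 of 5. None of these 28 genes was called, beside 5.91% of all genes.

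Of the 44 collagen genes, 5 were upregulated and 1 was downregulated in differentiating enterospheres. The rises were those of Col14a1, Col16a1, Col18a1, Col27a1 and Col8a1, and the fall was that of Col12a1. This is 13.6% of the collagens against 5.91% of all genes called in either direction, of which 2.94% were higher and 2.97% lower. The share rises with signal, as 9.13% of genes at or above the median cluster mean were called, against 14.7% (5 of 34) of the collagens there. The groups did not overlap in 13 collagens (29.5%), 10 higher and 3 lower, a share close to the 27.5% of all genes that did so. The collagens had a median log2 difference of 0.11 beside 0.02 over all genes, with 28 differences above 0 and 16 below. Of all genes, 56.3% had a difference above 0. At an unadjusted p under 0.05 there were 14 of the 44 collagens, 11 higher and 3 lower, beside 19.1% of all genes. The chains of types I, III, V and VI and the main chains of type IV were not among the called genes. The study itself lists Col6a5, Col12a1, Col14a1, Col16a1, Col18a1 and Col27a1 from these same arrays, so calls here on these genes are not independent evidence. Col6a5 was not called here.

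**Figure D1:**
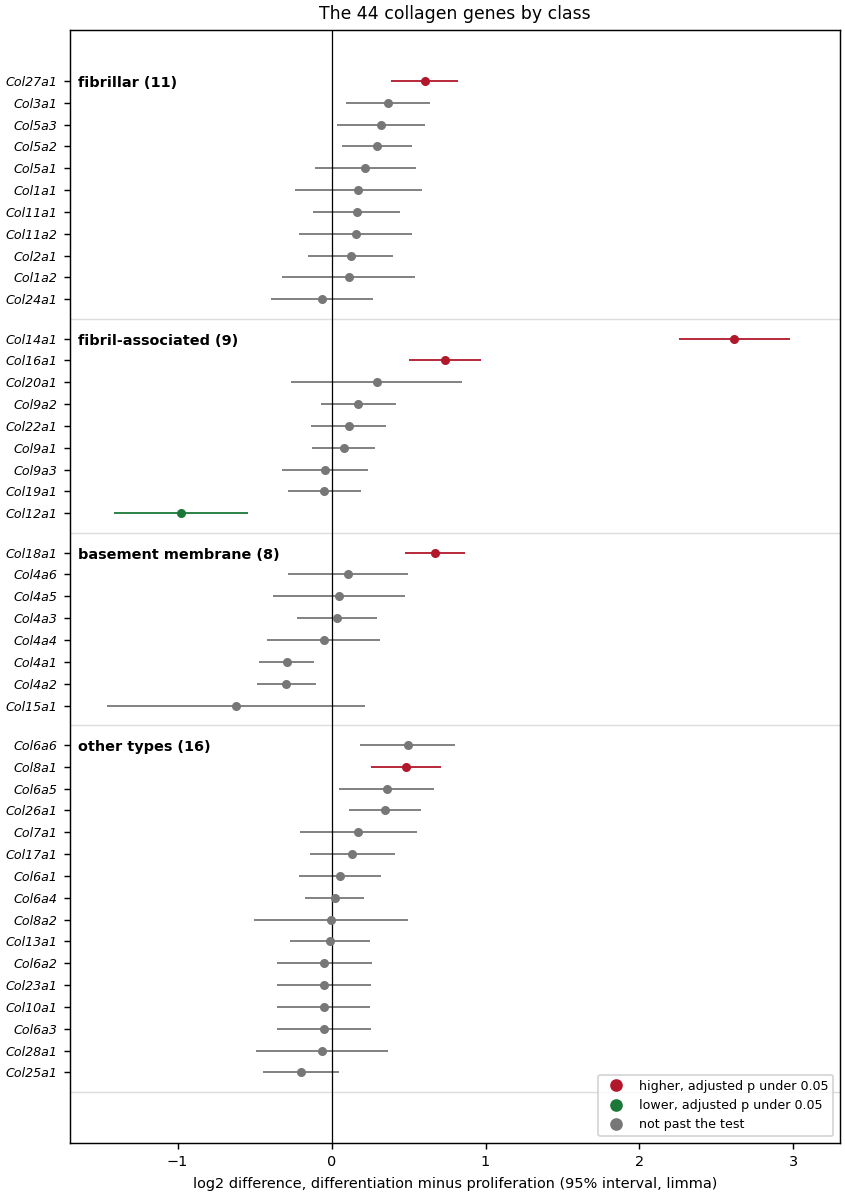
Log2 difference (differentiation minus proliferation, horizontal axis) of each of the 44 collagen genes with its 95% interval from limma, 3 arrays a group, sorted within the 4 classes. Col14a1 lies far to the right at 2.62, Col12a1 far to the left at -0.98, and most other intervals reach across or close to 0.

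The fibril-associated class held both the largest rise and the largest fall among the collagens. Of its 9 genes 3 were called (33.3%), beside 5.91% of all genes. At or above the median cluster mean it was 3 of 7, beside 9.13% of all genes there. Col14a1 encodes the chain of type XIV collagen, which binds fibrils near decorin and is known from tendon and other dense connective tissue. Its log2 values were 7.51, 7.28 and 7.84 in proliferation and 10.26, 10.04 and 10.18 in differentiation. All 3 differentiation arrays lay more than 2 log2 units above the highest proliferation array. The log2 difference was 2.62 (standard error 0.15, n = 3, limma adjusted p = 0.0014), a rise of 6.13-fold, and it stayed between 2.48 and 2.76 with any array left out (adjusted p from 0.00334 to 0.0171).

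Col12a1 moved the other way. It encodes type XII collagen, a close relative of type XIV in structure, and its values were 9.39, 10.10 and 9.57 in proliferation and 8.79, 8.74 and 8.59 in differentiation. The groups did not overlap, although proliferation replicate 2 stood above the other two arrays of its group. The log2 difference was -0.98 (standard error 0.18, adjusted p = 0.0346), which makes Col12a1 1.97-fold lower in differentiation. The call ended without proliferation replicate 3 or without differentiation replicate 1, 2 or 3, with adjusted p from 0.0962 to 0.126, while the log2 difference stayed between -1.13 and -0.77 with any array left out. Within an array, the Col14a1 value minus the Col12a1 value ranged from -2.82 to -1.73 in proliferation and from 1.30 to 1.58 in differentiation, a shift of 3.60 between the group means for a pair picked after its values were seen.

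Col16a1 encodes type XVI collagen, a chain with many short interruptions of its helix that is found near small fibrils and basement membranes. Its log2 values were 7.44, 7.18 and 7.31 in proliferation and 8.04, 7.97 and 8.13 in differentiation, with no overlap between the groups. The log2 difference was 0.74 (standard error 0.10, adjusted p = 0.0115, 1.67-fold), and without proliferation replicate 3 or differentiation replicate 1 the adjusted p was 0.0638 and 0.0716. The other 6 genes of the class, Col9a1, Col9a2, Col9a3, Col19a1, Col20a1 and Col22a1, had log2 differences from -0.05 to 0.29 and overlapping groups. Those of type IX, which decorates cartilage fibrils, were 0.08, 0.17 and -0.05 for the chains 1, 2 and 3. Col20a1 had the widest interval, from -0.26 to 0.85, since its proliferation arrays read 9.30, 8.34 and 8.95.

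Among the 11 fibrillar genes, 1 was called (9.09%), beside 9.13% of all genes at or above the median cluster mean, where all 11 lay. Of the 11 differences 10 lay above 0, beside 56.3% of those of all genes. The called gene was Col27a1, whose product forms thin fibrils, mostly known from cartilage. It read 8.40, 8.26 and 8.19 in proliferation and 8.96, 8.81 and 8.89 in differentiation, so that the lowest differentiation array stood above the highest proliferation array. The log2 difference was 0.61 (standard error 0.09, adjusted p = 0.0171, 1.52-fold). With proliferation replicate 3, differentiation replicate 1 or differentiation replicate 3 left out, Col27a1 was no longer called (adjusted p from 0.0546 to 0.1).

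The chains of the common interstitial fibrils had small positive differences that did not pass the test. Col3a1, the chain of type III collagen in extensible tissue such as the gut wall, read 10.18, 9.80 and 9.93 in proliferation and 10.33, 10.26 and 10.41 in differentiation, a log2 difference of 0.37 (adjusted p = 0.174). Col5a2 and Col5a3, chains of the type V collagen that starts fibrils, had log2 differences of 0.29 and 0.32 (adjusted p = 0.186 and 0.255), also with groups that did not overlap. Col5a1, the partner chain, had a difference of 0.22 with overlapping groups. The fibrillar genes with separate groups were thus 4 of 11, all higher in differentiation, against 27.5% of all genes in either direction.

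Type I collagen, the main fibril protein of most connective tissue, was not called in either chain. Col1a1 read 11.48, 10.90 and 11.05 in proliferation and 11.27, 11.15 and 11.53 in differentiation, and its log2 difference of 0.17 had a 95% interval from -0.24 to 0.59. Col1a2 had a difference of 0.11 with an interval from -0.32 to 0.54. These intervals leave room for a rise of up to 0.59 and 0.54 or a fall of 0.24 and 0.32 on the log2 scale, so that type I is not shown to be unchanged. Both chains ran in parallel across arrays, as the value of Col1a1 minus that of Col1a2 stayed between 0.79 and 0.94 on all 6 arrays while Col1a1 itself spanned 10.90 to 11.53. The cartilage-type chains Col2a1, Col11a1 and Col11a2 had log2 differences of 0.12, 0.16 and 0.16, and Col24a1 one of -0.06, all with overlapping groups.

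**Figure D2:**
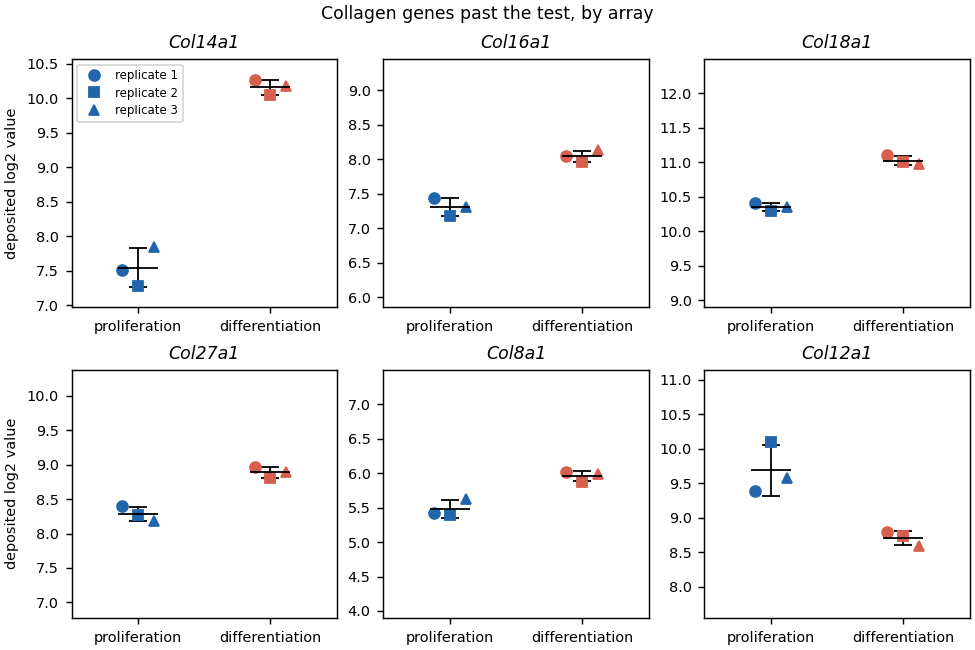
Deposited log2 value of the 6 called collagen genes on each array (circle, square and triangle for replicates 1, 2 and 3), with the group mean and SD as bars, and each panel spanning the same range of log2 units. The groups are apart in every panel, by far the most for Col14a1, and Col12a1 alone is lower in differentiation.

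In the basement membrane class, 1 of 8 genes was called (12.5%), beside 5.91% of all genes. The differences of the other 4 genes at or above the median cluster mean lay below 0. Col18a1 encodes type XVIII collagen, a heparan sulfate-bearing chain whose C-terminal fragment is endostatin. Its log2 values were 10.41, 10.29 and 10.36 in proliferation and 11.11, 11.00 and 10.98 in differentiation. The groups were well apart, each with an SD under 0.1 around its mean, and the log2 difference was 0.67 (standard error 0.08, adjusted p = 0.00877, 1.60-fold). Without proliferation replicate 3 or differentiation replicate 1 the adjusted p was 0.0514 and 0.0627. Hspg2, which encodes perlecan, another large heparan sulfate proteoglycan of basement membranes, read 10.95, 10.53 and 10.59 in proliferation and 11.77, 11.57 and 11.55 in differentiation, a log2 difference of 0.94 (adjusted p = 0.0142).

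The main type IV chains had values on the other side of 0. Col4a1 read 9.69, 9.72 and 9.63 in proliferation and 9.36, 9.37 and 9.43 in differentiation, and Col4a2 read 10.02, 10.04 and 9.90 against 9.65, 9.74 and 9.70. For both, every differentiation array lay below every proliferation array, with log2 differences of -0.29 and -0.29 and 95% intervals from -0.47 to -0.11 and from -0.48 to -0.10. The adjusted p was 0.101 and 0.119, so neither was called with all clusters in the adjustment, while both were called lower when clusters under the median mean were left out of the test. The value of Col18a1 minus that of Col4a1 within an array went from between 0.58 and 0.73 in proliferation to between 1.55 and 1.75 in differentiation, a pair also picked after its values were seen.

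Col4a1 and Col4a2 encode the partner chains of the common type IV heterotrimer and lie head to head on chromosome 8 (RefSeq, GRCm38.p6), transcribed away from a shared promoter. The annotated starts overlap by 22 bases, chr8:11312805-11312826, shown on the Col4a2 strand with a GC box in capitals because the 2 genes had the same log2 difference.
Col4a1 and Col4a2 starts: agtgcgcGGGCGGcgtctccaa
Over the 6 arrays the value of Col4a1 minus that of Col4a2 stayed between -0.36 and -0.27, and its group means differed by 0.002. The pair Col4a6 and Col4a5, also head to head, has starts 1344 bases apart on chromosome X. Its members, together with Col4a3 and Col4a4, the minor type IV chains known from kidney and muscle, had log2 differences from -0.05 to 0.10, overlapping groups and means from 5.39 to 6.21, close to or under the median cluster mean.

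Col15a1, the relative of Col18a1 in the class, varied most between replicates. It read 11.40, 9.86 and 10.62 in proliferation, an SD of 0.77, and 9.87, 10.00 and 10.14 in differentiation, an SD of 0.14. The lowest proliferation array lay under all differentiation arrays, and the log2 difference of -0.62 had a 95% interval from -1.46 to 0.21 (adjusted p = 0.475). No change of Col15a1 was detected.

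Of the 16 other types, 1 was called (6.25%), close to the 5.91% of all genes. Col8a1, a short chain of the type VIII network known from vessel walls and Descemet's membrane, read 5.43, 5.39 and 5.62 in proliferation and 6.01, 5.87 and 5.99 in differentiation. Its log2 difference was 0.48 (standard error 0.10, adjusted p = 0.0436), but its mean lay below the median cluster mean and the call ended with any 1 of the 6 arrays left out (adjusted p from 0.0761 to 0.197). Col8a2, its partner chain, had a difference of -0.01.

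Type VI collagen, which forms beaded filaments close to cells, was measured through 6 chains and had none called. The classical chains Col6a1, Col6a2 and Col6a3 had log2 differences of 0.06, -0.05 and -0.05, with 95% intervals within -0.36 and 0.32, and Col6a1 read from 10.85 to 11.23 over all 6 arrays. Col6a4, Col6a5 and Col6a6 encode chains that can replace the third chain. Col6a6 read 7.14, 6.88 and 6.89 in proliferation and 7.42, 7.29 and 7.68 in differentiation, with no overlap and a log2 difference of 0.49 (adjusted p = 0.104), and it was called higher when clusters under the median mean were left out of the test. Col6a5 had a difference of 0.36 (adjusted p = 0.237), and its second, dimmer cluster one of 0.61 (adjusted p = 0.0857), while the second cluster of Col6a6 had one of 0.46 (adjusted p = 0.29). The 1.527-fold that the study lists for Col6a5 matches its dimmer cluster, not the one used here. Col6a4, at means of 5.48 and 5.50, differed by 0.02.

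The rest of the other types had no call. Col26a1, a secreted chain first known from testis and ovary, had a log2 difference of 0.35 (adjusted p = 0.129) with groups that did not overlap. Col25a1, a membrane-spanning chain of neurons and muscle fibres, had one of -0.20 (adjusted p = 0.432), with overlapping groups. The remaining members, Col7a1, Col10a1, Col13a1, Col17a1, Col23a1 and Col28a1, lay between -0.06 and 0.17. In all, 10 of the 44 genes had means under the median cluster mean, where a low value may hold little signal of the gene itself, and of these Col8a1 alone was called.

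The proximal promoters of 3 upregulated genes were picked with their log2 differences known, 0.74, 0.67 and 0.61 for Col16a1, Col18a1 and Col27a1. They are the 250 bases before the annotated start on the strand of the gene (RefSeq, GRCm38.p6), with any CCAAT box (CCAAT) and GC box (GGGCGG) on either strand in capitals. The windows lie at chr4:130047590-130047839 on the plus strand for Col16a1, chr10:77166531-77166780 on the minus strand for Col18a1 and chr4:63215162-63215411 on the plus strand for Col27a1.
Col16a1: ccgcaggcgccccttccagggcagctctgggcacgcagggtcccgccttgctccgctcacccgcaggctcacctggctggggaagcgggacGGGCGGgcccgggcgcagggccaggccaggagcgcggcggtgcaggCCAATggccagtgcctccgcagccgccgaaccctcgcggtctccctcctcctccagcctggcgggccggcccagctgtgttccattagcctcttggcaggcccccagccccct
Col18a1: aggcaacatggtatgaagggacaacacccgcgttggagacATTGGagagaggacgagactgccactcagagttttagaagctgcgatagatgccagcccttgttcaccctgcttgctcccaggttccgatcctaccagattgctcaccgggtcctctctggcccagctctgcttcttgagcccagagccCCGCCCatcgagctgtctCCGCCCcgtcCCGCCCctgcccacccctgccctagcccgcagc
Col27a1: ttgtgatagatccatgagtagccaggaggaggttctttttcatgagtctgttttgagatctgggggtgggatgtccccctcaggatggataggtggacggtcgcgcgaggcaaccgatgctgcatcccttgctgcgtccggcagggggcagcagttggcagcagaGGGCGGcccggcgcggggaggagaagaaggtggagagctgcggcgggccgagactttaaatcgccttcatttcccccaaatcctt
Each window printed here holds at least 1 GC box, and that of Col8a1, also called higher but not printed, holds 4. GC boxes were found in 22 of 38 collagen windows, which belong to 35 of the 44 genes (57.9%), and in 32.7% of the 32851 windows of all genes. The CCAAT box was found in 34.2% of collagen windows and 33.8% of all. The letters TATAAA were found in 13.2% against 12.4% and TGANTCA, the AP-1 motif, in 1 window (2.63%) against 6.75%. A second annotated start of Col18a1, at chr10:77113706-77113955 on the minus strand, has none of these letters in its window. Such matches describe the letters of a window and not binding. Col12a1 and Col14a1 were not among the windows.

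The collagens also shared a pattern among the replicates, apart from the treatment. In proliferation, replicate 1 was the highest and replicate 2 the lowest array in 25 of 44 collagens (56.8%), against 29.3% of all genes. Fibroblast markers had this order in 9 of 13 (69.2%), while markers of glia and progenitors had it in 0 of 8 and were highest on replicate 2 in 7 of 8. The summed linear level of the 13 fibroblast markers ranged from 5527 to 9516 over the proliferation arrays and from 6456 to 7038 over the differentiation arrays. The part of the fibroblast markers in the spread of the collagens was not tested. Col1a1, Col1a2, Col3a1, Col5a1, Col6a1 and Col15a1 had this order, while Col12a1 had replicate 2 as its highest and replicate 1 as its lowest array.

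Between the groups, 1 of the 13 fibroblast markers was called (7.69%), close to the 5.91% of all genes. The called gene was the matrix gene Dpt (log2 difference 1.20), and the median difference of the list was -0.05. Of the 10 smooth muscle markers 4 were called higher and 1 lower (50%), and Myh11, Cnn1 and Lmod1 had means below the median cluster mean. The summed linear levels of this list ranged from 2636 to 3098 in proliferation and from 2935 to 3198 in differentiation. The part of smooth muscle in the rises of Col14a1, Col16a1, Col18a1 and Col27a1 was not tested. Glia and progenitor markers had 1 gene higher and 2 lower (37.5% of 8), and neuronal markers 1 higher (11.1% of 9). The 3 markers of interstitial cells of Cajal had 1 lower (33.3%). All markers of these lists had means above the median cluster mean, where 9.13% of all genes were called. The summed linear levels were in that order from 15091 to 20088, 11675 to 15286 and 5694 to 7028 in proliferation. In differentiation they were from 15707 to 17045, 13384 to 14930 and 4266 to 4608.

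In differentiation, replicate 2 was the lowest array in 34 of 44 collagens (77.3%) against 35.4% of all genes. It was the lowest for all 10 collagens under the median cluster mean, where 59.8% of all genes of that range had it lowest, and for 24 of the 34 brighter ones (70.6%), where 19.2% of genes did. The fibroblast markers did not share this order, as 4 of 13 had replicate 2 lowest in differentiation and 7 of 13 had replicate 1 lowest. Markers of glia and progenitors were highest on differentiation replicate 2 in 7 of 8. Col6a1, Col6a2 and Col6a3 were close between the differentiation arrays, with SDs from 0.02 to 0.04.

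**Figure D3:**
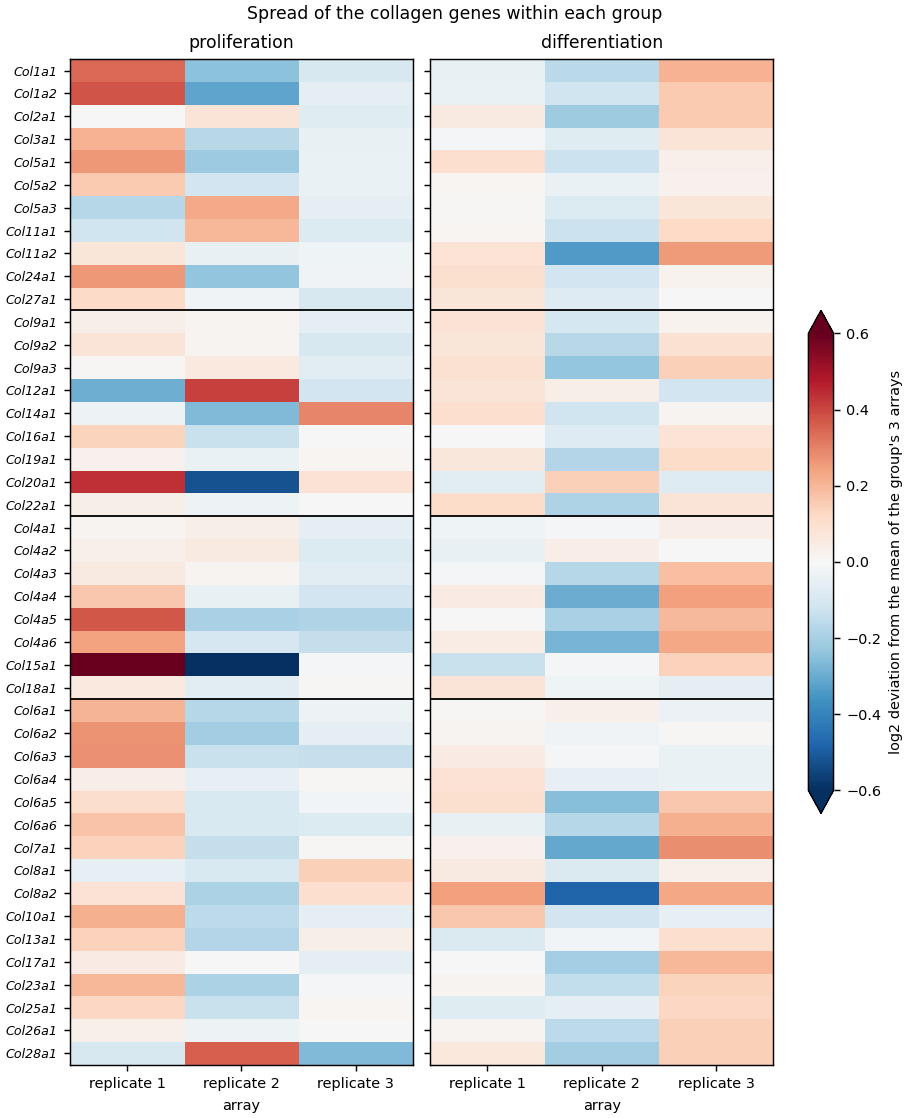
Deviation of each collagen gene on each array from the mean of its group's 3 arrays (log2 units, colours limited to 0.6 either way), with lines between the 4 classes. Most rows are red for proliferation replicate 1 and blue for replicate 2, with Col12a1 reversed and Col15a1 the most extreme, and most are blue for differentiation replicate 2.

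The genes that modify, process, bind and degrade collagen were taken as 5 lists of 75 entries, of which 70 were measured. Of these 9 were upregulated and 8 downregulated, 24.3% against 5.91% of all genes. Only 10 of the 70 had means below the median cluster mean, and 9.13% of all genes at or above it were called. By list, the called share was 15% for folding and modification and 41.7% for propeptide removal and crosslinking. It was 18.2% for receptors and uptake, 37.5% for proteases and 21.1% for fibril-binding proteoglycans and glycoproteins. Fkbp10, Adamts2, Loxl2, Gp6 and Mmp15 had no cluster that carried their symbol alone and were not analysed here. The study lists Mmp15 as lower in differentiation on these same arrays, so the protease counts below leave it out. The study had picked some of these genes from the same arrays, so these counts too are not independent evidence.

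Among 20 genes of chain folding and modification, 1 rose and 2 fell. P4ha1 encodes a catalytic subunit of prolyl 4-hydroxylase, one of the ascorbate-dependent enzymes. It read 10.05, 10.18 and 10.07 in proliferation and 9.04, 9.27 and 9.08 in differentiation, a log2 difference of -0.97 (adjusted p = 0.00488). Plod3, a lysyl hydroxylase that also adds sugars, read 10.23, 10.05 and 10.15 in proliferation against 11.34, 11.22 and 11.39, a rise of 1.17 (adjusted p = 0.00292). The lysyl hydroxylases Plod1 and Plod2, named for comparison after their values were seen, had log2 differences of -0.33 and -0.30 (adjusted p = 0.0809 and 0.199). Colgalt2, which adds galactose to hydroxylysine, fell by 0.65 (adjusted p = 0.0288, and 0.0762 to 0.136 without proliferation replicate 3 or 1 of the differentiation replicates). Its mean over the arrays lay below the median cluster mean. The list's median was -0.15, with 14 of the 20 differences below 0.

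Of 12 genes of propeptide removal and crosslinking, 3 rose and 2 fell. Lox, the lysyl oxidase that starts crosslinks between fibril chains, read 6.71, 6.44 and 6.51 in proliferation and 8.22, 8.06 and 8.49 in differentiation, a rise of 1.70 (adjusted p = 0.00313), or 3.25-fold. Its relative Loxl4 rose by 1.28 (adjusted p = 0.00438), as did the transglutaminase Tgm2 by 1.15 (adjusted p = 0.0203). The call on Tgm2 ended without proliferation replicate 3 or any 1 of the differentiation replicates (adjusted p from 0.0584 to 0.09). The tolloid-like proteases went the other way. Tll2 read 9.18, 8.43 and 8.85 in proliferation and 6.86, 7.02 and 6.91 in differentiation and fell by 1.89 (adjusted p = 0.00488), and Tll1, named outside the rule for named genes, fell by 0.86. Bmp1, the founding member of these proteases, had a difference of 0.53 (adjusted p = 0.0584). Adamts3, a remover of N-propeptides, had 16 clusters, of which 3 were called and the brightest, used here, was not.

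Collagen receptors were split. Itga11 and Itga1 encode alpha subunits of collagen-binding integrins, the first mostly on mesenchymal cells. Itga11 read 5.85, 5.77 and 5.67 in proliferation and 6.49, 6.45 and 6.80 in differentiation, a rise of 0.82 (adjusted p = 0.015), and Itga1 fell by 0.74 (adjusted p = 0.0152). Leaving out proliferation replicate 3 or differentiation replicate 1 gave Itga11 an adjusted p of 0.0751 and 0.0672, and leaving out differentiation replicate 1 or 2 gave Itga1 one of 0.0895 and 0.0555. The other 9 genes of the list, which holds the discoidin domain receptors and the uptake receptor Mrc2, were not called.

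Among 8 collagen-degrading proteases, 1 rose and 2 fell. The gelatinases, which cut denatured collagen and type IV, moved apart. Mmp9 read 10.07, 9.47 and 9.58 in proliferation and 6.96, 7.30 and 7.44 in differentiation and fell by 2.47 (adjusted p = 0.00292), which is 5.56-fold, while Mmp2 rose by 0.74 (adjusted p = 0.0276). The rise of Mmp2 was not called without proliferation replicate 3 or any 1 of the differentiation replicates (adjusted p from 0.0817 to 0.12). Mmp16, a membrane-bound protease, fell by 0.71 (adjusted p = 0.012, and 0.071 without differentiation replicate 1). Mmp1a, Mmp8 and Mmp13, the interstitial collagenases, had means under the median cluster mean and were not called.

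Of 19 proteoglycans and glycoproteins of fibrils or basement membranes, 3 rose and 1 fell. Matn2, a matrilin that bridges matrix networks, read 10.60, 10.61 and 10.76 in proliferation and 12.03, 11.96 and 12.06 in differentiation, a rise of 1.36 (adjusted p = 0.00183). Kera, the small leucine-rich proteoglycan keratocan, rose by 1.32 (adjusted p = 0.00376), and Hspg2 rose as given above, although leaving out proliferation replicate 3, differentiation replicate 1 or differentiation replicate 2 gave an adjusted p of 0.0721, 0.0778 and 0.0504. Aspn, which encodes asporin and competes with decorin on fibrils, fell by 0.96 (adjusted p = 0.0161). Aspn was no longer called once proliferation replicate 3, differentiation replicate 1 or differentiation replicate 3 was left out, with an adjusted p between 0.0526 and 0.0778.

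**Figure D4:**
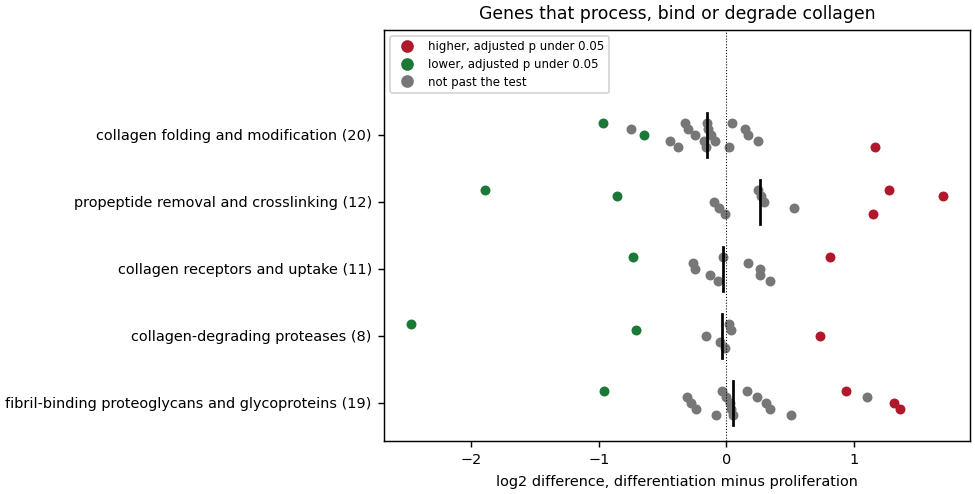
Log2 difference (differentiation minus proliferation, horizontal axis) of each of the 70 measured genes in 5 lists, coloured by limma's adjusted p, with a bar at the median of each list and heights within a list only for spacing. Called genes lie on both sides of 0 in every list, from Mmp9 at -2.47 to Lox at 1.70, and the medians lie near 0.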

How the data were processed

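Total RNA of 6 enterosphere samples, 3 per group by the labels, was measured on GeneChip Mouse Gene 1.0 ST arrays. The authors deposited log2 values, normalized by RMA in Partek Software 6.6 after scanning under AGCC 3.0 and a quality check in Expression Console 1.0. RMA equalises the distributions of the arrays, so a shift shared by most genes would not be seen. The genome build is not given in the sources used here. Of 35556 transcript clusters, 21789 carried 1 symbol in the platform annotation, 1621 several and 12146 none. The Entrez identifiers of all 44 collagens were found in the RefSeq table of GRCm38.p6, and 0 symbols changed.

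The comparison was run with lmFit and eBayes of limma 3.58.1 under R 4.3.3 on every cluster, unfiltered, with the group alone in the model and a prior of 2.83 degrees of freedom. Two-sided p-values were adjusted by Benjamini-Hochberg across the clusters, and calls needed no fold. A simulation with known changes served to test the code. Promoter motifs were read with Python 3.11.15 and pandas 2.3.3, and figures drawn with matplotlib 3.10.9. Every collagen could be named, and of each pathway list up to 4 called genes by size of change. The members, lists, classes and rules were chosen with earlier results of these data known. Nothing in the labels says that the samples came from separate cultures, although the methods describe independent experiments, so p-values measure the spread between these samples. The alternatives were the replicate block, limma-trend, cyclic loess, median centring, a filter on low clusters, the mean of a gene's clusters, leaving out each array, and the methods' t-test at their thresholds and after Benjamini-Hochberg. Supplementary tables of the study were not used.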

Additional observations from a re-analysis of the deposited data

How the results depend on the processing

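Under 14 alternatives, Col14a1, Lox, P4ha1, Plod3 and Matn2 kept their calls throughout, and none of the 22 called genes that were followed turned direction. The 5 higher and 1 lower collagens became 3 and 0 with the replicate block and 2 and 0 with the methods' t-test after Benjamini-Hochberg, while leaving out 1 array gave 1 to 4 higher and 0 to 1 lower. With low clusters left out 3 were lower, Col4a1 and Col4a2 beside Col12a1, and Col6a6 was called higher while Col8a1 was not tested, and with the mean of a gene's clusters 2, Col4a1 beside Col12a1. For the classes, the block and the adjusted t-test left 0 of the fibrillar genes called, and leaving out 1 array left 0 to 1. The fibril-associated count of 3 was 2 with the block, 1 with the adjusted t-test and 1 to 3 with 1 array left out. The basement membrane count of 1 was 3 with low clusters left out, 2 with the mean of clusters and 0 to 1 with 1 array left out. The other types had 0 called with the block, limma-trend, cyclic loess, median centring, either t-test or any 1 array left out, which is the loss of Col8a1. The 17 pathway genes became 10 with the block, 5 with the adjusted t-test and 8 to 18 with 1 array left out. Over all genes, 1179 calls became 545 with the block, 1696 with low clusters left out, 1889 with the mean of clusters, 211 with the adjusted t-test and 257 to 1009 with 1 array left out. Same-numbered arrays correlated by -0.003, 0.09 and -0.074 in their deviations from the group means over all clusters. Not every array correlated best with its own number, so the main model did not take the numbers to pair the samples. Replicate 2 was, however, the highest array for 7 of 8 glia and progenitor markers in proliferation and again in differentiation. For the collagens it was the lowest in 28 of 44 in proliferation and 34 of 44 in differentiation. Whether equal numbers mark pairs is thus not settled. The methods describe picked spheres going into either medium, so samples may be paired by experiment, which the main model leaves out. With the block the calls on Col12a1 (adjusted p = 0.071), Col27a1 (0.06) and Col8a1 (0.103) ended, and so did those on Tgm2 (0.0697), Itga11 (0.0684), Itga1 (0.0554), Mmp2 (0.0711), Aspn (0.0731) and Colgalt2 (0.061). Apart from the named arrays, the causes of these shifts were not tested. Signal over background was not part of the deposited values, and calls on dim genes are limited by that.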
